A study of Homo sapiens with 4 samples.

Results

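Genes for long intergenic noncoding RNAs that have not been given a name of their own carry a symbol made of LINC and a number, and 985 of the 60662 genes in the deposited table of NB4 cells had such a symbol. The 94 described here were those whose deposited counts summed to at least 100 over the 4 libraries. Of the 985, 617 had no count in any library and 368 had a count above 0. The members were chosen by their level over both groups, so their levels are a description. At low counts the rule is not independent of the difference between the groups, as given below.

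All libraries came from NB4, a human acute promyelocytic leukaemia line (M3/APL) with the fusion protein PML-RARα. The cells were transduced with the lentiviral vector pLVX-IRES-GFP, either empty (vector, 2 libraries) or with JMJD3 (2 libraries), the H3K27 demethylase that KDM6B encodes. Cells of both groups thus carried the vector backbone and GFP, and GFP-positive cells were sorted by FACS after 3 days and again after 5 days. The libraries were poly(A)-selected and made with a TruSeq kit that does not keep the strand, so reads of genes that overlap on opposite strands cannot be told apart. The deposited counts summed to 39078443 and 40768225 for the vector libraries, and to 35176388 and 34704909 for the JMJD3 libraries. Divided by what 1 read was worth in each library, these were 34190335 and 38947094 reads for vector and 35431655 and 41876227 reads for JMJD3, so JMJD3 library 2 was the lowest by deposited counts and the deepest by reads. Nothing in the labels says whether the replicates came from separate transductions, so each p-value measures only the spread between these samples. Lane 20 held vector library 1, and lane 17 held the other 3. KDM6B stood at 15.8 and 13.7 CPM (counts scaled by TMM-adjusted library size) in the vector libraries and at 37.9 and 44.1 CPM in the JMJD3 libraries.

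Long intergenic noncoding RNAs are transcripts of RNA polymerase II from DNA between protein-coding genes, most of them capped and polyadenylated and many of them spliced. Most are held at a low level, in part because the nuclear exosome degrades them, and many start next to the promoter of a protein-coding gene and run away from it. A LINC symbol is provisional and is replaced when a function, a host role for a small RNA or a short protein is found, while JMJD3 removes methyl groups from H3K27, a histone mark that Polycomb proteins place on silent genes.

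The label of a noncoding RNA between genes held for most members and not for all. All 94 were found in the RefSeq gene table and 91 in GENCODE release 44 on GRCh37, where they lay on 23 chromosomes. GENCODE gave 79 of them a long noncoding type and 5 a pseudogene type, and 7 were protein-coding in at least 1 of the references. Exons of 26 members overlapped exons of a protein-coding gene on either strand, and the bodies of 30 members overlapped the body of one. A newer symbol was found for 28. The median member had a canonical transcript of 2040 bases in 3 exons, and the nearest protein-coding gene lay at a median of 2319 bases.

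Some members share much of their sequence with other genes, and the effect of this on their counts was not tested. The canonical transcripts of 8 of the 90 members that had one shared more than 50% of their bases, at 98% identity or more over at least 150 bases, with another gene. Among them were LINC00152 (CYTOR), with 100% of its bases shared, and LINC00893 and LINC00894, with 50.2% and 56.4%. For 83 of the 94 members the deposited value was a whole number of reads in all 4 libraries, to within 0.02 read plus 2e-05 of the value, and for the others it was not.

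NB4 stands for promyelocytes, and of the 9 markers fixed for them MPO was abundant while ELANE was close to absent, at 0.351 and 0.183 CPM in vector and 0.0270 and 0.0540 CPM in JMJD3 libraries. The 9 markers summed to 17089 and 17931 CPM in the vector libraries and to 11022 and 10949 CPM in the JMJD3 libraries, with MPO the most abundant at a mean of 4136 FPKM (fragments scaled by transcript length and library size). Of the 8 markers tested, 2 were higher in JMJD3 cells and 4 were lower. For this and the next marker lists, the shares over all genes tested were 21.6% higher and 19.1% lower. Of the 5 T cell markers, the 2 that could be tested, CD2 and TRAC, were both higher, and the list summed to 13.1 and 14.8 CPM in vector and 50.4 and 46.6 CPM in JMJD3 libraries. TRAC was the most abundant of them at a mean of 32.4 FPKM, while CD3D, CD3E and CD3G each stood at 0.262 CPM or less in every library. The 5 B cell markers summed to 25.9 and 30.8 CPM in vector and 36.6 and 32.8 CPM in JMJD3 libraries, with 1 of 3 tested higher, CD79B the most abundant at 24.1 FPKM and MS4A1 at 0. The 6 stromal or epithelial markers summed to 6.72 and 7.68 CPM in vector and 3.51 and 2.92 CPM in JMJD3 libraries, with 1 of 2 tested lower, EPCAM the most abundant at 2.75 FPKM and COL1A2 at 0. The part of these markers in the changes of the LINC genes was not tested, and in bulk libraries fewer cells that make an RNA and less of that RNA per cell cannot be told apart.

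The members covered a wide range of levels. Per length, the median member had a mean of 2.03 FPKM over the 4 libraries, and the range ran from 0.212 FPKM for LINC00654 to 121 FPKM for LINC00926. In all, 30 members stood under 1 FPKM and 17 over 10 FPKM. All 94 had reads in each of the 4 libraries, and the lowest value was 5 reads, for LINC00893 in vector library 1. A gene with no read could have had up to 3, which is 0.0925, 0.0823, 0.0804 and 0.0671 CPM in vector libraries 1 and 2 and JMJD3 libraries 1 and 2, and these limits cover counting error only.

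All 94 members passed the expression filter, which kept 15246 genes for edgeR's quasi-likelihood test. A gene was called where its p, adjusted over all of these, was under 0.05. By that rule 34 members (36.2%) were higher in JMJD3 cells, against 21.6% of all genes tested, and 7 (7.45%) were lower, against 19.1%. Together 41 members (43.6%) were called, against 40.7%, so the share called was near that of all genes and the split between the directions was not. Of the members, 20 (21.3%) were at least 2-fold higher and 3 (3.19%) at least 2-fold lower, against 7.55% and 2.82% of all genes tested. Of the 20, 11 had vector libraries that summed to less than 50 counts. Among the 76 members with at least 50 counts in each group, 9 were at least 2-fold higher, against 5.11% of such genes. The median log2 fold change of the members was 0.35, against 0.04 over all genes tested, 0.02 over protein-coding genes and 0.13 over 1107 other long noncoding genes of GENCODE that also had a summed count of at least 100. Among those other long noncoding genes, 24.8% were higher, 15% lower and 11.6% at least 2-fold higher.

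The counts of calls moved with the libraries and the tool, in the members and in all genes tested. Without JMJD3 library 1, and likewise without JMJD3 library 2, 22 members (23.4%) were higher, against 12.8% and 12% of all genes in the same fits. Without vector library 1, which leaves only libraries of lane 17, 33 (35.1%) were higher and 12 (12.8%) lower, against 26.8% and 26.6%. Limma on FPKM plus 0.1 or plus 1 called 16 (17%) or 20 (21.3%) higher, against 13.3% and 13.4%, and the DESeq2 Wald test called 23 (24.5%), against 16.6%. At least 2-fold higher were 12 (12.8%) without JMJD3 library 2, against 6%, and 13 (13.8%) by the DESeq2 Wald test, against 5.29%. By limma on FPKM plus 0.1 or plus 1 they were 9 (9.57%) or 3 (3.19%), against 6.17% and 1.92%. In each of these fits the share of members called higher was above that of all genes, by the least with limma on FPKM plus 0.1.

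**Figure D1:**
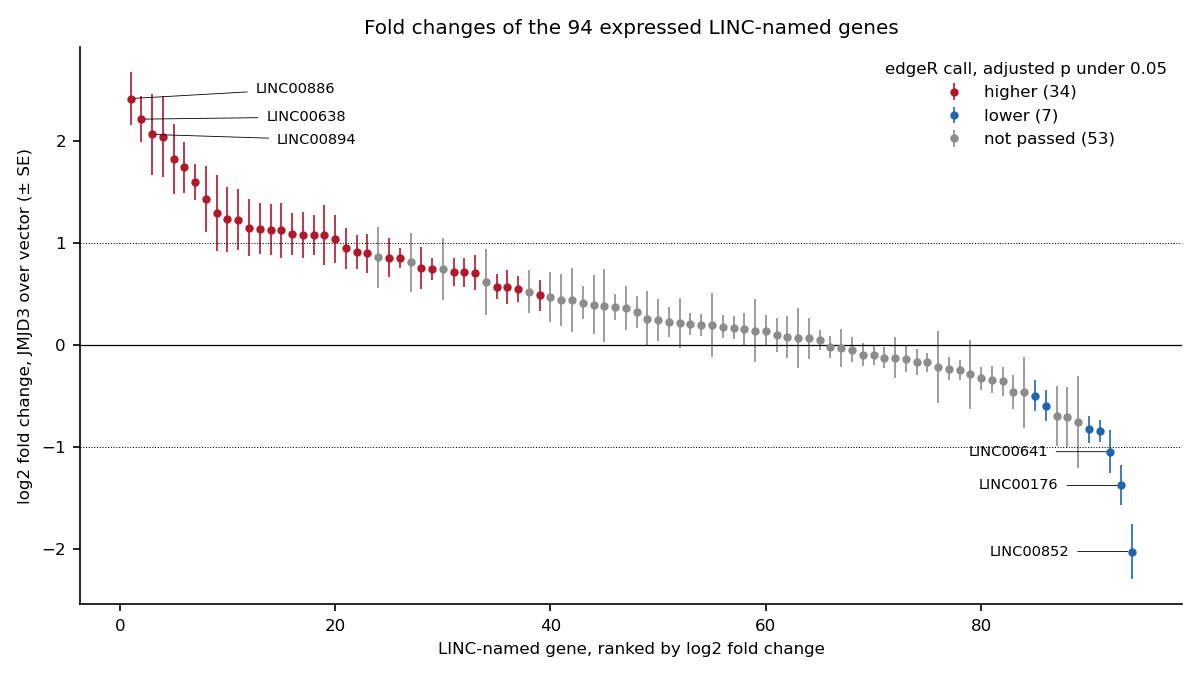
The 94 members are ordered along the horizontal axis by log2 fold change (JMJD3 over vector, vertical axis), with bars of 1 standard error and colours for the members that edgeR's quasi-likelihood test called higher, lower or neither. The values run from 2.42 for LINC00886 to -2.03 for LINC00852, with 65 members above 0 and 29 below.

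Both JMJD3 libraries stood above both vector libraries for 54 members (57.4%), against 39.6% of all genes tested, and below both for 20 (21.3%), against 34.8%. The 53 members that did not pass had log2 fold changes from -0.76 to 0.86, and the standard error over the members had a median of 0.20 and reached 0.45. A miss of the threshold therefore does not show that a member stayed the same. Called under each of the ways of fitting that were tried, including each library left out in turn, were LINC00094, LINC00176, LINC00324, LINC00426, LINC00599, LINC00638, LINC00852, LINC00886, LINC00997, LINC01006, LINC01521 and LINC01578. The share of all genes tested that would be on such a list is not given, so its length says nothing about the members as a set.

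The calls differed between ranges of the summed count. That sum is also the value the membership rule used, and the trend was not tested. Among the 35 members with a summed count of 100 to 250, 16 (45.7%) were higher and 0 lower by edgeR's quasi-likelihood test, against 23.4% and 9.43% of all 1484 tested genes in that range. Of the 28 members from 250 to 1000, 11 (39.3%) were higher and 4 (14.3%) lower, against 33% and 12% of 2157 genes. Of the 31 members with at least 1000, 7 (22.6%) were higher and 3 (9.68%) lower, against 19.9% and 24.6% of 9652 genes. At least 2-fold higher were 15 of the 35 members in the lowest range (42.9%) and 0 of the 31 in the highest, against 17.9% and 2.66% of all tested genes in these ranges. The median log2 fold changes in the 3 ranges were 0.62, 0.40 and -0.02 for the members, against 0.22, 0.25 and -0.03 for all tested genes. In both sets the highest range had the lowest median.

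**Figure D2:**
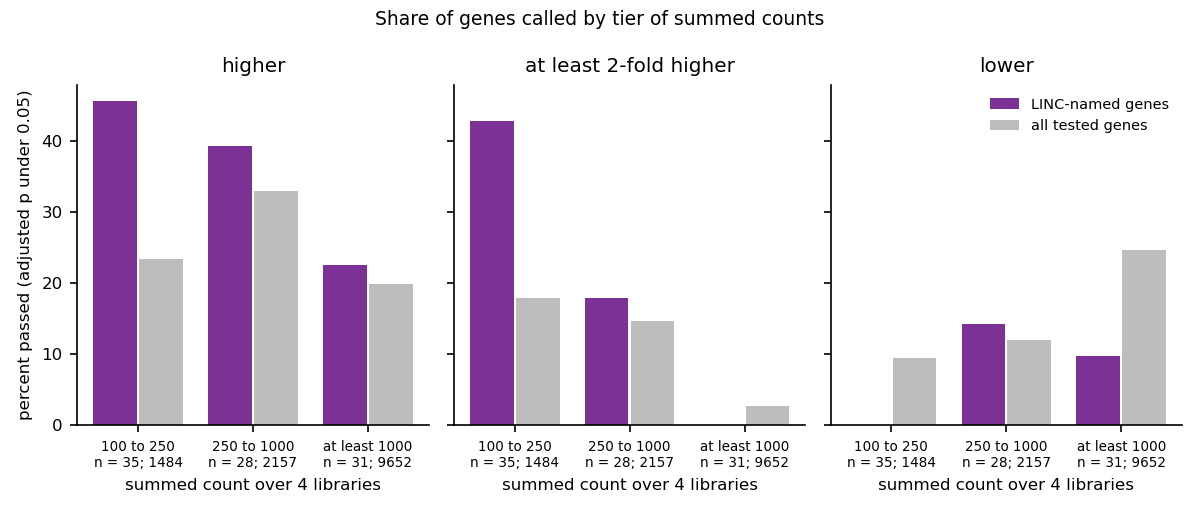
Bars give the percent of genes called higher, at least 2-fold higher or lower in JMJD3 cells (1 panel each, vertical axis from 0) in 3 ranges of the summed count (horizontal axis), for the LINC members and for all tested genes of the same range. The share of members called higher falls from 45.7% in the lowest range to 22.6% in the highest, and that of all tested genes from 23.4% to 19.9%.

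A threshold on the sum can admit a member mostly through the group where it is high, which ties the rule to the difference at low counts. In 14 members the vector libraries summed to less than 50 counts, and 11 of these (78.6%) were higher by edgeR's quasi-likelihood test, against 68.4% of 285 tested genes under the same limits. Among the 14 were LINC00886, LINC00638, LINC00894, LINC00893, LINC01624, LINC00324 and LINC00211, which are described below with the largest rises. These met the rule mostly through the JMJD3 libraries, so their fold changes and adjusted p are not independent of it. In 4 members the JMJD3 libraries summed to less than 50 counts, and 0 of these were called, against 47% of 198 such genes called lower. The 76 members with at least 50 counts in each group held 23 (30.3%) called higher and 7 (9.21%) called lower, against 21.7% and 21% of 12810 such genes. Their median log2 fold change was 0.21, against 0.02 over those genes. In the range from 100 to 250 counts, the same limit left 19 of the 35 members. Of these, 7 (36.8%) were higher and the median was 0.44, against 16% and 0.18 over 1023 genes. At least 2-fold higher were 6 of the 19 (31.6%), against 9.09% of the 1023 genes. So 9 of the 16 members called higher in that range were among those with few counts in vector. Just inside the threshold lay LINC00893, with a sum of 101.1 counts, and LINC01560, with 102.9 counts and 0.701 and 0.472 CPM in vector and 0.810 and 0.783 CPM in JMJD3 libraries. Just outside lay LINC01588, with 98.3 counts and 0.405 and 0.445 CPM in vector and 0.891 and 0.918 CPM in JMJD3 libraries, and LINC01513, with 97.8 counts and 0.728 and 0.603 against 0.702 and 0.594 CPM. LINC00893 inside and LINC01588 outside were both higher, LINC01588 by a log2 fold change of 1.08 (edgeR quasi-likelihood adjusted p = 0.0256). LINC01560 and LINC01513 did not pass.

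**Figure D3:**
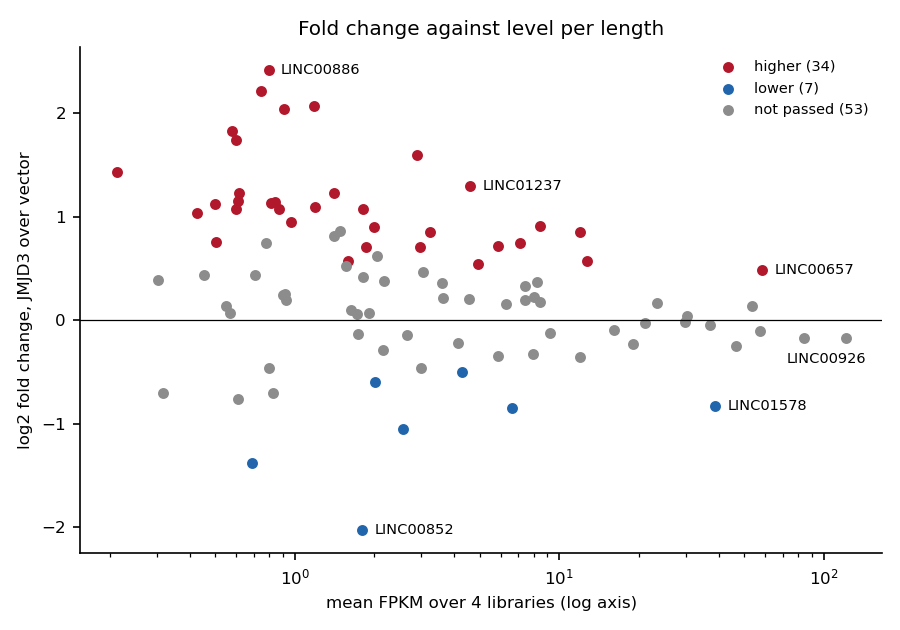
Each point is 1 member, placed by its mean level in FPKM (horizontal axis, log scale) and its log2 fold change of JMJD3 over vector (vertical axis), with colours for the call of edgeR's quasi-likelihood test. Of the 30 members under 1 FPKM 16 were higher, and of the 17 members over 10 FPKM 3 were, against 27.1% and 13.8% of all tested genes with at least 100 counts at these levels.

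The sequences shown first are the 300 bases around the start of the member with the largest rise and the member with the largest fall, because the windows of these members differed in their number of CG pairs. They are RefSeq sequences of build GRCh38.p14 and run 5′ to 3′ from 250 bases before the start to 50 after it, with each CG in capitals. LINC00886 lies at chr3:156817013-156817312 on the minus strand and LINC00852 at chr3:10284169-10284468 on the plus strand.
LINC00886: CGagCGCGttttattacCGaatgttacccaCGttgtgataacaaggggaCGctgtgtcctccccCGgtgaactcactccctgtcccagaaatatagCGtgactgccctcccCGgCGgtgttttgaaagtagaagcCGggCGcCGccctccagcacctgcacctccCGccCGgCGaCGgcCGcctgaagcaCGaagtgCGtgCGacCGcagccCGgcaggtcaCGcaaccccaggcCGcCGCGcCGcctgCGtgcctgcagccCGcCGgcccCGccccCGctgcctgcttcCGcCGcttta
LINC00852: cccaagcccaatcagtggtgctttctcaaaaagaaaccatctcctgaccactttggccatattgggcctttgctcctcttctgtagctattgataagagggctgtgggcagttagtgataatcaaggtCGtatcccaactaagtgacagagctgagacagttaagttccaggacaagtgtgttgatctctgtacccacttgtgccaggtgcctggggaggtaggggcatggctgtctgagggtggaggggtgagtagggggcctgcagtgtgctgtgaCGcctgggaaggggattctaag

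The LINC00886 window held 35 CG pairs at 67.7% GC, and 14% of all 27305 promoter windows in the table held as many or more. The LINC00852 window held 2 at 52.7% GC, and 19% of all windows held as few or fewer. Windows were found for 73 of the 94 members. The median number of CG pairs was 20 for 26 members called higher, 4.5 for 6 called lower and 23 for 41 that did not pass, against 14 over all windows. The ranges overlapped, from 0 to 47 in higher and from 1 to 36 in lower members, and 9 of the 26 windows of higher members and 4 of the 6 of lower members held fewer than the 14 of the median window. The window of LINC00324, a higher member, held 3, and that of LINC01578, a lower one, held 36. Neither methylation nor H3K27 marks were measured in these libraries.

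LINC00886 (ENSG00000240875; GRCh37 chr3:156465132-156534851, minus strand) had the largest rise of the 94. The vector libraries held 15.9% of its summed count, so it met the rule mostly through the JMJD3 libraries, like the others named above as such. It was at 0.728 and 0.445 CPM in the vector libraries and 3.05 and 3.24 CPM in the JMJD3 libraries, from 24 and 16 reads against 114 and 145. The JMJD3 libraries were both several times higher and close to each other, and the groups did not overlap. Its log2 fold change was 2.42 (standard error 0.26, edgeR quasi-likelihood adjusted p = 0.00182). The nearest protein-coding gene, LEKR1, lay 8419 bases away and stood at 0.270 and 0.524 CPM in vector and 0.702 and 0.729 CPM in JMJD3 libraries. That change of 0.84 did not pass (edgeR quasi-likelihood adjusted p = 0.121), and without vector library 2 it was 1.39 and passed.

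LINC00638 (ENSG00000258701; GRCh37 chr14:105287538-105290055, plus strand), which RefSeq now calls VESTAR, followed. It stood at 0.674 and 0.524 CPM in vector and 2.86 and 2.73 CPM in JMJD3 libraries. Again the JMJD3 libraries lay together, well clear of the vector libraries. Its log2 fold change was 2.22 (standard error 0.23, edgeR quasi-likelihood adjusted p = 0.00161). Its nearest protein-coding neighbour, the zinc finger gene ZBTB42 at 16489 bases, went from 3.62 and 4.82 CPM to 9.42 and 10.0 CPM. ZBTB42 too was higher in both JMJD3 libraries than in either vector library, with a log2 fold change of 1.20 (edgeR quasi-likelihood adjusted p = 0.00311).

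A pair of members on chromosome X starts next to a pair of related genes and is named for them, LINC00894 (EOLA2-DT) and LINC00893 (EOLA1-DT). LINC00894 was at 0.621 and 0.236 CPM in vector and 1.97 and 1.62 CPM in JMJD3 libraries. LINC00893 was at 0.162 and 0.367 CPM in vector and 0.999 and 1.22 CPM in JMJD3 libraries. For each of them both JMJD3 libraries were the higher, while the vector libraries differed from each other by more than the JMJD3 libraries did in proportion. Their log2 fold changes were 2.07 and 2.05 (edgeR quasi-likelihood adjusted p = 0.00837 and 0.00915). EOLA2 starts 87 bases from the start of LINC00894 on the other strand, and the genes overlap by 88 bases of exon. EOLA2 moved the other way, from 37.1 and 39.8 CPM to 25.1 and 24.0 CPM. Its log2 fold change was -0.65 (edgeR quasi-likelihood adjusted p = 0.00469), and -0.61 without JMJD3 library 2, where it no longer passed. EOLA1 changed by -0.22 and did not pass (edgeR quasi-likelihood adjusted p = 0.142). Because the pair share bases, as given above, their rises cannot be taken as separate measurements. Of the exon bases of LINC00893, 53.5% also overlapped the protein-coding gene ENSG00000241489, with which LINC00894 shared sequence. The values of LINC00893 were not a whole number of reads in every library, while those of LINC00894 were.

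LINC01624 and LINC00324 were low in every library and rose with the same sign as their neighbours. LINC01624 was at 0.378 and 0.236 CPM in vector and 1.19 and 0.999 CPM in JMJD3 libraries, a log2 fold change of 1.83 (edgeR quasi-likelihood adjusted p = 0.00789). With limma on FPKM plus 0.1 or plus 1 its change was 0.96 or 0.32 and did not pass. DLL1, which encodes a Notch ligand and lies 2319 bases away on the opposite strand, went from 14.1 and 15.6 CPM to 31.5 and 32.9 CPM, a log2 fold change of 1.12 (edgeR quasi-likelihood adjusted p = 0.00139). By CPM the JMJD3 libraries of both genes stood clear of the vector libraries, and DLL1 was the more abundant by counts. By FPKM LINC01624 stood at 0.122 and 0.721 in vector and 0.777 and 0.686 in JMJD3 libraries, so its groups overlapped. LINC00324 (ENSG00000178977; GRCh37 chr17:8123942-8127361, minus strand) was at 0.459 and 0.550 CPM in vector and 1.65 and 1.76 CPM in JMJD3 libraries. The libraries of a group lay close together and the groups were well apart, with a log2 fold change of 1.75 (standard error 0.25, edgeR quasi-likelihood adjusted p = 0.00355). CTC1, a telomere maintenance gene 772 bases from it, changed by 0.45 (edgeR quasi-likelihood adjusted p = 0.0162). That neighbour's change was less secure, at 0.46 and 0.44 without JMJD3 library 1 or 2, where it did not pass, and just under 0 from FPKM.

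The remaining members among the 10 with the largest rises were LINC01006, LINC00654, LINC01237 and LINC00211. LINC01006 (RNF32-DT) was at 1.48 and 1.31 CPM in vector and 4.40 and 4.08 CPM in JMJD3 libraries. That was the highest level by counts of the 10, with little spread inside a group and a log2 fold change of 1.60 (standard error 0.17, edgeR quasi-likelihood adjusted p = 0.00189). RNF32, whose start lies 373 bases away on the other strand, changed by 0.10 and did not pass (edgeR quasi-likelihood adjusted p = 0.727), and the sign of its change was not stable. LINC00654 and LINC01237 had vector libraries that differed more, at 0.890 and 0.472 CPM and at 1.16 and 0.524 CPM. Their JMJD3 libraries were at 1.65 and 2.03 CPM and at 1.70 and 2.43 CPM, for log2 fold changes of 1.43 and 1.30, calls that were both lost with no filter on low counts, and that of LINC00654 also from FPKM. LINC00211, now PIRAT1, was at 0.674 and 0.393 CPM in vector and 1.27 and 1.24 CPM in JMJD3 libraries, a log2 fold change of 1.23. Its call was lost without JMJD3 library 1, JMJD3 library 2 or vector library 2 (1.22, 1.25 and 0.89), among other settings, and that of LINC01237 without JMJD3 library 2 or vector library 2 (1.02 and 0.83).

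**Figure D4:**
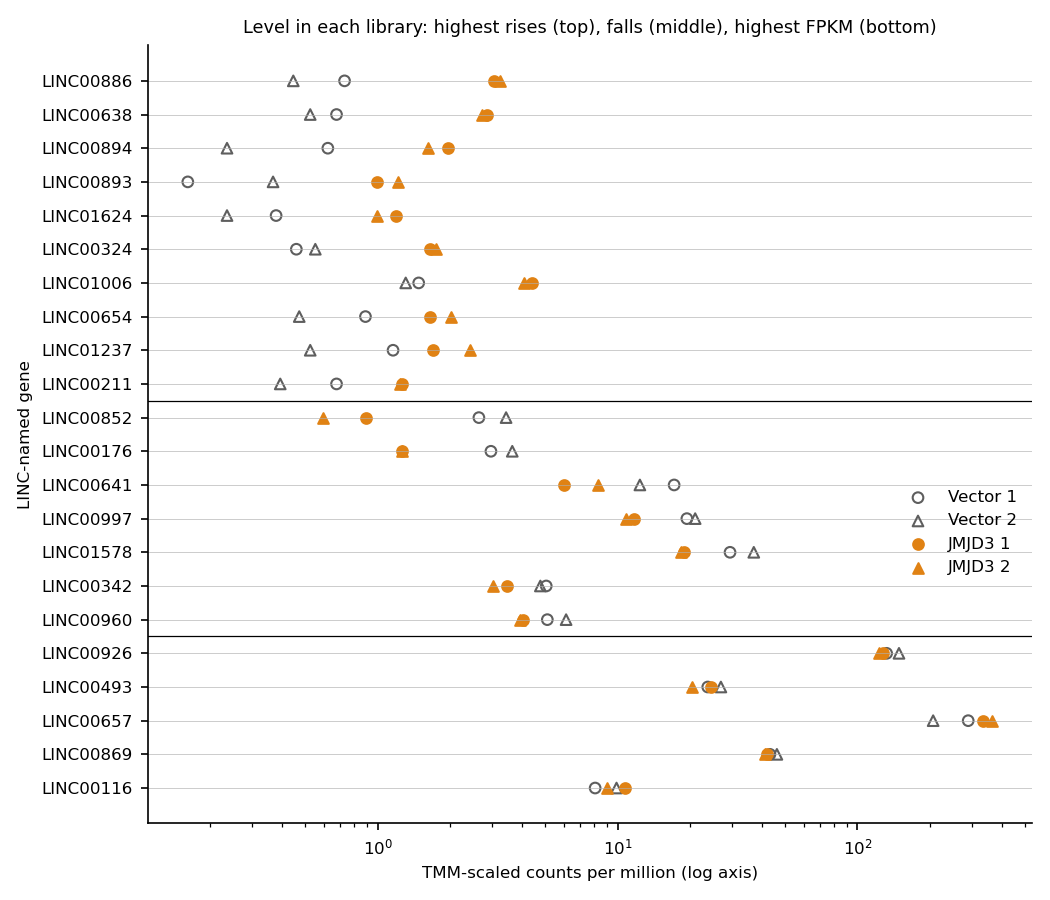
Points give the level of each named member in each of the 4 libraries in CPM (log scale), with open grey markers for vector and filled orange markers for JMJD3 libraries, circles for replicate 1 and triangles for replicate 2. LINC00886 stands at 0.728 and 0.445 CPM in vector and 3.05 and 3.24 CPM in JMJD3 libraries, and LINC00852 at 2.64 and 3.43 against 0.891 and 0.594 CPM.

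Of the 7 members that were lower, LINC00852 (ENSG00000231177; GRCh37 chr3:10326103-10327430, plus strand) fell the most. It had 2.64 and 3.43 CPM in the vector libraries and 0.891 and 0.594 CPM in the JMJD3 libraries, from 86 and 125 reads against 33 and 27. Both JMJD3 libraries were far below both vector libraries. Its log2 fold change was -2.03 (standard error 0.27, edgeR quasi-likelihood adjusted p = 0.00278). It overlaps GHRL, the ghrelin gene, by 81 bases of exon, and GHRL stood at 0.378 and 0.341 CPM in vector and 0.270 and 0.324 CPM in JMJD3 libraries.

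LINC00176 (ENSG00000196421; GRCh37 chr20:62665697-62671315, plus strand) is a member by name only, since it is now the protein-coding gene C20orf204. It was at 2.97 and 3.64 CPM in vector and at 1.27 CPM in each JMJD3 library. The JMJD3 libraries were alike and lay under both vector libraries, with a log2 fold change of -1.38 (standard error 0.20, edgeR quasi-likelihood adjusted p = 0.00352). LINC00641 was at 17.2 and 12.4 CPM in vector and 5.99 and 8.32 CPM in JMJD3 libraries. Libraries of each group differed from each other, but the groups did not overlap, and its log2 fold change was -1.05 (standard error 0.21, edgeR quasi-likelihood adjusted p = 0.0104). With no filter on low counts it did not pass (-1.05). Its neighbour HNRNPC, an abundant RNA-binding protein gene, changed by -0.42 (edgeR quasi-likelihood adjusted p = 0.00552), and by -0.38 without JMJD3 library 2, where it did not pass.

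LINC00997 and LINC01578 were the lower members with the most counts. LINC00997 (ENSG00000281332; GRCh37 chr7:32799891-32802536, plus strand) was at 19.5 and 21.1 CPM in vector and 11.7 and 10.9 CPM in JMJD3 libraries. Its spread within a group was small against the gap, with a log2 fold change of -0.84 (standard error 0.11, edgeR quasi-likelihood adjusted p = 0.00276). LINC01578 (ENSG00000272888; GRCh37 chr15:93362770-93442931, plus strand) is CHASERR, an RNA known for holding down the chromatin remodeller gene CHD2 beside it. CHASERR was at 29.4 and 37.0 CPM in vector and 18.95 and 18.42 CPM in JMJD3 libraries, a log2 fold change of -0.83 (standard error 0.13, edgeR quasi-likelihood adjusted p = 0.00508). CHD2 stood at 73.5 and 59.4 CPM in vector and 60.2 and 63.4 CPM in JMJD3 libraries, so its groups overlapped while those of CHASERR did not. Its change of -0.10 did not pass (edgeR quasi-likelihood adjusted p = 0.516), and was 0.014 without vector library 1 and -0.25, passing, without vector library 2.

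LINC00342 and LINC00960 fell the least of the 7, by log2 fold changes of -0.60 and -0.50 (edgeR quasi-likelihood adjusted p = 0.0211 and 0.0393). LINC00342 was at 5.05 and 4.77 CPM in vector and 3.46 and 3.02 CPM in JMJD3 libraries. LINC00960 was at 5.10 and 6.10 CPM in vector and 4.02 and 3.92 CPM in JMJD3 libraries. The groups did not overlap in either member, yet both calls were lost without JMJD3 library 1 (-0.70 and -0.52) and without JMJD3 library 2 (-0.50 and -0.48), and that of LINC00960 also without vector library 2 (-0.37). Both were lost as well with the DESeq2 Wald test, with no filter and from FPKM, and that of LINC00960 also with a block for replicate number. Of the bases of LINC00342, 73.0% were shared with other genes.

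The member with the most counts was LINC00657, which is NORAD (ENSG00000260032; GRCh37 chr20:34633540-34638940, minus strand), an RNA known for binding the Pumilio proteins through many copies of a short motif. Because repeated sites are what this RNA is known for, 5 of its windows of 30 bases are shown, from its GENCODE release 44 transcript, with the motif TGTANATA in capitals.
NORAD site 1: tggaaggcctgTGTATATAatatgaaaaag
NORAD site 2: cctcactactgTGTATATAgttgacaatgc
NORAD site 3: aaatcacatttTGTAAATAcctttttgtta
NORAD site 11: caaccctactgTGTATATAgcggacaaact
NORAD site 14: caatgctactgTGTATATAatggaaaactt

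The motif began at bases 819, 1198, 1299, 3030 and 3651 of the transcript in these windows. The 5401 bases of NORAD held 15 copies on the transcript's own strand. Among 5173 canonical transcripts of 4000 to 7000 bases the median was 0 copies and the maximum 24, and 3 transcripts, NORAD included, held 15 or more. Of the 90 members with a canonical transcript, 74 held none, and the most after NORAD were 4 in LINC01023 and 2 each in LINC00886 and LINC00893. NORAD was at 289 and 207 CPM in vector and 333 and 363 CPM in JMJD3 libraries. The groups did not overlap, but vector library 1 lay nearer to the JMJD3 libraries than to vector library 2. The log2 fold change was 0.49 (standard error 0.15, edgeR quasi-likelihood adjusted p = 0.0424). It was 0.26 without vector library 2 and 0.71 without vector library 1, and without JMJD3 library 2 it was 0.43 and did not pass. The call was also lost with no filter on low counts (0.49) and with limma on FPKM plus 0.1 or plus 1 (0.48 and 0.47). NORAD alone made up 29.0% and 21.9% of the summed CPM of the members in the vector libraries and 31.1% and 33.1% in the JMJD3 libraries.

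Per length LINC00926 (ENSG00000247982; GRCh37 chr15:57592563-57599967, plus strand) was the highest, at 121 FPKM. By counts it stood at 132 and 149 CPM in vector and 127 and 123 CPM in JMJD3 libraries. All 4 libraries were close, though both JMJD3 libraries were the lower, and the log2 fold change of -0.17 did not pass (edgeR quasi-likelihood adjusted p = 0.168). Without vector library 1 it was -0.30 and passed, and computed from FPKM it was 0.15, so its direction was not settled. LINC00869, at 57.4 FPKM, changed by -0.10 (edgeR quasi-likelihood adjusted p = 0.419), and from FPKM by 0.18. Summed over all 94 members, the level was 998 and 943 CPM in the vector libraries and 1070 and 1096 CPM in the JMJD3 libraries. Of these sums, NORAD alone held 289 and 207 CPM in vector and 333 and 363 CPM in JMJD3 libraries. Summed in FPKM, the members stood at 836 and 885 in vector and 883 and 895 in JMJD3 libraries, so the groups overlapped. The median member went from 1.88 and 2.14 CPM to 2.96 and 2.88 CPM.

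Of the 7 members that encode proteins, 1 was higher, 1 was lower (LINC00176, given above) and 5 did not pass by edgeR's quasi-likelihood test. Over all tested protein-coding genes, 22.3% were higher and 21% lower. LINC00094, now BRD3OS, was at 15.9 and 16.4 CPM in vector and 28.6 and 29.7 CPM in JMJD3 libraries. With libraries nearly equal inside each group, its log2 fold change of 0.85 had a standard error of 0.10 (edgeR quasi-likelihood adjusted p = 0.00215). Its neighbour BRD3, a bromodomain gene with which it shares exon bases, rose as well, by 0.53 (edgeR quasi-likelihood adjusted p = 0.0099). LINC00493 (SMIM26) and LINC00116 (MTLN), which encode small mitochondrial proteins, stood at 84.5 and 53.3 FPKM, among the 5 highest per length. SMIM26 was at 23.8 and 27.0 CPM in vector and 24.6 and 20.5 CPM in JMJD3 libraries, and MTLN at 8.07 and 9.90 against 10.7 and 9.05 CPM. The groups of both overlapped, and their changes of -0.17 and 0.14 did not pass (edgeR quasi-likelihood adjusted p = 0.328 and 0.497). LINC01420, which encodes the decapping regulator NBDY, changed by -0.09, LINC00998 (SMIM30) by -0.24 and LINC00959 (C10orf143) by 0.39, with adjusted p of 0.541, 0.0841 and 0.308 from edgeR's quasi-likelihood test. SMIM30 passed without vector library 1 (-0.25) or vector library 2 (-0.29), and the sign for MTLN and NBDY turned when 1 vector library was left out (-0.045 without vector library 1, and 0.012 without vector library 2).

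Some members start beside a gene of the other strand. A protein-coding gene started on the opposite strand within 1000 bases of 17 members. Of these, 9 were higher, 0 lower and 8 did not pass by edgeR's quasi-likelihood test, against 34, 7 and 53 of all 94 members. Over all genes tested, 21.6% were higher and 19.1% lower. Such starts were looked for beside LINC genes only, and the difference was not tested. The nearest protein-coding gene lay at a median of 431 bases from members called higher, 1244 bases from those called lower and 10397 bases from the rest. Over the 68 pairs of a member and its nearest protein-coding gene with both tested, the Pearson correlation of their log2 fold changes was 0.20 across genes, which are not independent replicates. It was 0.08 over the 39 pairs that overlapped or lay within 5000 bases and 0.42 over the 29 pairs farther apart. The members of a near pair can share reads, and all pairs share the same 4 libraries.

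Of the 27 higher members with a tested neighbour, 11 neighbours were higher, 7 lower and 9 did not pass, while over all 68 neighbours 33.8% were higher and 22.1% lower. All 7 of the lower neighbours lay within 5000 bases, where 5 others were higher and 5 did not pass. Of their 10 neighbours beyond 5000 bases, 6 were higher and 0 lower by edgeR's quasi-likelihood test. Over the neighbours of all members, 10 of 29 beyond 5000 bases were higher and 4 lower, against 13 higher and 11 lower of 39 within, and the difference was not tested. An example of opposite change, chosen after its values were seen, was LINC01521, 431 bases from PATZ1. It was at 1.32 and 1.26 CPM in vector and 2.51 and 2.94 CPM in JMJD3 libraries, while PATZ1 changed by -0.44. Both JMJD3 libraries of LINC01521 were above both vector libraries. Of the 6 lower members with a tested neighbour, 1 neighbour was higher, ANKRD36C next to LINC00342 (0.68, not passing without JMJD3 library 2 at 0.65 or from FPKM). A further 2 were lower, HNRNPC and PRPF6 (-0.26, not passing without JMJD3 library 1 at -0.26, without JMJD3 library 2 at -0.25, with no filter, or from FPKM), and 3 did not pass.

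**Figure D5:**
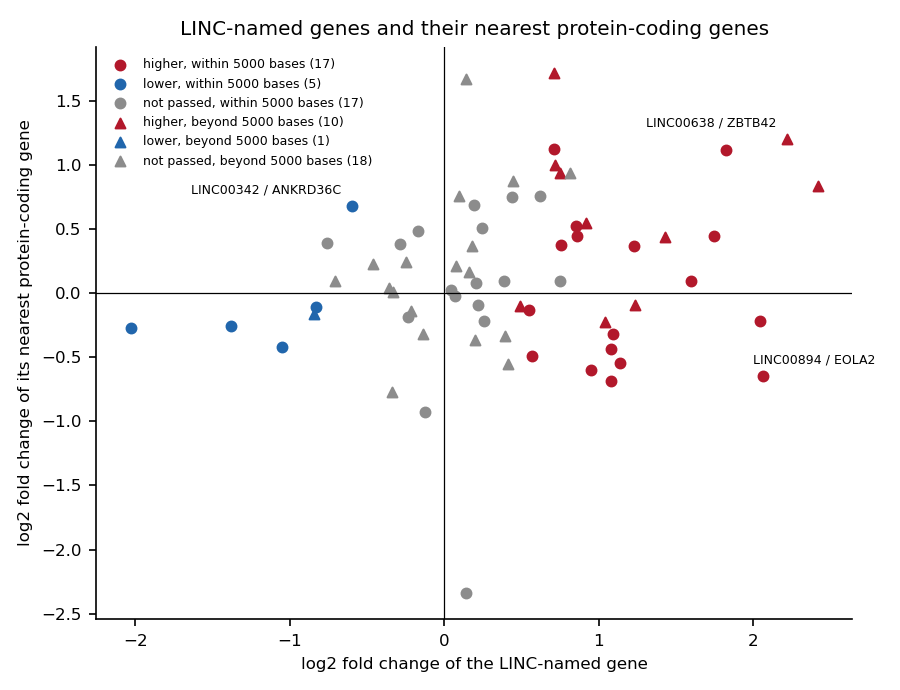
Each point is 1 of 68 pairs, placed by the log2 fold change of the LINC member (horizontal axis) and of its nearest protein-coding gene (vertical axis), with colours for the call of the member, circles for pairs within 5000 bases and triangles for those farther apart. The Pearson correlation is 0.08 over the 39 near pairs and 0.42 over the 29 far pairs.

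The promoter windows were also searched on both strands for the letters of 4 motifs. TTGCNNAA, the C/EBP motif, was in 5 of 73 member windows (6.85%) and in 10.6% of all windows, and TGANTCA, the AP-1 motif, in 7 (9.59%) and in 7.76%. GAGGAAGT, the PU.1 core, was in 1 member window and in 2.54% of all windows. TATAAA was in 9 member windows (12.3%) and in 12% of all windows. By call, TTGCNNAA was in 1 of the 26 windows of higher members (3.85%) and 4 of the 41 of those that did not pass (9.76%), and TGANTCA in 1 (3.85%) and 6 (14.6%). GAGGAAGT was in 0 and 1 of them, and none of the 3 was in the 6 windows of lower members. TATAAA went the other way, in 6 of the 26 windows of higher members (23.1%), in 3 of 41 of those that did not pass (7.32%) and in 0 of 6 of the lower members. The window of LINC01521, a higher member whose start faces PATZ1, is shown as 1 of these 6, at chr22:31346509-31346808 on the plus strand of GRCh38.p14 from RefSeq, with the reverse-strand match in capitals at 159 bases before the start.
LINC01521: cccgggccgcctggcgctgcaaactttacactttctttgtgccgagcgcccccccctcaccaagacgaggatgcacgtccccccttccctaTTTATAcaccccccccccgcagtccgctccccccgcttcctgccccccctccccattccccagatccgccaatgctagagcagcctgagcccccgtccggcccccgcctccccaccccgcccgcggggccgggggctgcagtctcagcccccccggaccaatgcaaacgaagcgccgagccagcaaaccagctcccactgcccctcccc

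A match of these letters is a description and not a site, and binding was not measured in these libraries.

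Other long noncoding RNAs and the machinery that degrades them give the setting of these changes. Of 22 snoRNA host RNAs, 20 were tested, with 2 higher (10%), 12 lower (60%) and a median log2 fold change of -0.47. The shares over all genes tested were 21.6% higher and 19.1% lower. The largest changes among them were in SNHG9 (-0.96), EPB41L4A-AS1 (-0.94) and SNHG19 (-0.76). EPB41L4A-AS1 went from 34.5 and 37.1 CPM to 19.1 and 18.2 CPM, with both JMJD3 libraries the lower. The calls of SNHG9 and SNHG19 were lost without JMJD3 library 2 (-0.68 and -0.61) and without vector library 2 (-0.89 and -0.50), and with no filter on low counts.

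Of 39 other named long noncoding RNAs, 25 were tested, with 6 higher (24%), 5 lower (20%) and a median log2 fold change of 0.32, so the shares called were near the 21.6% and 19.1% of all genes tested. H19, an imprinted RNA, was at 0.998 and 1.41 CPM in vector and 16.6 and 16.3 CPM in JMJD3 libraries. Its JMJD3 libraries were nearly equal and far above the others, a log2 fold change of 3.76 (edgeR quasi-likelihood adjusted p = 0.000325) that no LINC member reached. MIR210HG, the host of a hypoxia-induced microRNA, changed by 3.20 and MIR17HG, the host of a growth-promoting microRNA cluster, by -1.65 (edgeR quasi-likelihood adjusted p = 0.000829 and 0.000901).

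The list for the nuclear exosome, its adaptors and related factors such as XRN2 held 28 names. It held SRRT also under its other name ARS2, and the 27 found in the table were all tested. Of these, 3 were higher (11.1%, against 21.6% of all genes tested) and 12 lower (44.4%, against 19.1%), with a median log2 fold change of -0.20. ZFC3H1, an adaptor that brings polyadenylated RNA to the exosome, went from 31.1 and 20.6 CPM to 60.5 and 64.6 CPM. Both JMJD3 libraries were higher, by a log2 fold change of 1.28 (edgeR quasi-likelihood adjusted p = 0.00384), which from FPKM was 0.36 or 0.33 by the value added and did not pass. Exosome subunits EXOSC6 and EXOSC10 changed by -0.61 and -0.58 (edgeR quasi-likelihood adjusted p = 0.00424 and 0.00272), and EXOSC6 did not pass without JMJD3 library 2 (-0.59). The part of these genes in the changes of the LINC members was not tested.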

How the data were processed

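Poly(A)-selected RNA of 2 vector and 2 JMJD3 libraries of NB4 cells was sequenced as paired ends on a HiSeq 4000. The table deposited by the authors gives, per gene and library, estimated counts and FPKM (fragments scaled by transcript length and library size). The deposited counts were not raw reads, and 99.4% of the nonzero counts were not whole. Most were whole multiples of 1 step per library (1.14, 1.05, 0.993 and 0.829 counts per read in vector libraries 1 and 2 and JMJD3 libraries 1 and 2). This was checked for values up to 1000 counts, to within 0.02 read, and held for 93.0% to 93.6% of them per library. Read numbers in the text are counts divided by that step. The paper names STAR with hg19 and HTSeq-count, the submitters' notes TopHat2, RSEM, edgeR and GRCh38, and the series text BWA and Cufflinks, so the aligner and build are unsure. The authors' own mean FPKM, log2 fold change, p-value and FDR columns were not used. Every per-sample column was used.

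Counts were rounded, filtered with filterByExpr, scaled with TMM and tested over 15246 genes by the quasi-likelihood F-test of edgeR 4.0.16 in R 4.3.3, with group as the only term, all 4 libraries together and Benjamini-Hochberg adjustment. Standard errors were taken from F and the log2 fold change. CPM uses TMM-scaled library sizes. Alternatives were size factors and the Wald test of DESeq2 1.42.0, no filter, log2 FPKM with 0.1 or 1 added in limma 3.58.1, at least 10 counts in every library, unrounded counts, a replicate block, each library left out in turn, member thresholds of 50 and 200, and members without exon overlap or protein-coding status. The tests were tested on simulated data. Python 3.11.15, pandas 2.3.3, numpy 2.4.6, matplotlib 3.10.9 and BLAST 2.17.0 were used.

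Positions are those of GENCODE release 44 on GRCh37, matched by gene identifier (93.9% of the table's), since the table gives none. Promoter windows are from RefSeq on GRCh38.p14. Genes named were the 10 members called with the largest rises and up to 10 with the largest falls, with groups that did not overlap, and their nearest protein-coding genes. Also named were the 5 highest members by FPKM, protein-coding members, those beside the threshold, KDM6B and up to 3 genes per list. The members and lists were chosen with earlier results of these data known.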

Additional observations from a re-analysis of the deposited data

How the results depend on the processing

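No called LINC member changed sign under any way of fitting that was tried, but the counts of calls moved. Against 34 higher (36.2%, and 21.6% of all genes tested), limma gave 16 on log2(FPKM + 0.1) (17%, and 13.3% of all genes) and 20 on log2(FPKM + 1) (21.3%, and 13.4%). A member threshold of 200 counts, which leaves the fit and its 21.6% of all genes as they were, gave 22 (33.8%). Leaving out each library in turn gave 22 to 34, with 22 (23.4%) without JMJD3 library 1 and 22 without JMJD3 library 2, where 12.8% and 12% of all genes were higher. Against 7 lower (7.45%, and 19.1% of all genes), 4 were left with no filter (4.26%, and 6.55%). Without the members whose exons overlap a protein-coding gene, 4 were left (5.88%, and the same 19.1% of all genes). Leaving out each library gave 5 to 12, with 12 (12.8%, and 26.6%) without vector library 1. Against 20 at least 2-fold higher (21.3%, and 7.55% of all genes), the DESeq2 Wald test gave 13 (13.8%, and 5.29%). Limma gave 9 (9.57%, and 6.17%) and 3 (3.19%, and 1.92%) on log2(FPKM + 0.1) and log2(FPKM + 1). A threshold of 200 gave 8 (12.3%, and the same 7.55% of all genes). Leaving out each library gave 12 to 19, with 12 (12.8%, and 6%) without JMJD3 library 2. Against 3 at least 2-fold lower, limma on log2(FPKM + 1) gave 1 (1.06%, and 1.1%), and leaving out each library gave 3 each time. The cause was not tested.

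The median log2 fold change of the members, 0.35, stayed above 0. It was 0.31 with the DESeq2 Wald test and 0.31 with DESeq2 size factors, 0.27 with at least 10 counts in every library, and 0.24 and 0.14 with limma on log2(FPKM + 0.1) and log2(FPKM + 1). It was 0.42 and 0.21 with thresholds of 50 and 200, 0.40 without exon overlap, and 0.25 to 0.36 with each library left out. Over members with whole reads in all 4 libraries, an alternative chosen after seeing the data, it was 0.39. Counts divided by the library step, also chosen after seeing the data, gave 34 higher and 7 lower. In a fit with 1 library in a group, that lone sample is assumed to vary like the other group. The cause was not tested.

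With a block for replicate number, 36 members were higher and 6 lower, and the median was 0.34. These counts are set against the 34 and 7 of the fit without the block, not against all genes. Of the 41 members called without the block, 40 were still called and LINC00960 was not, while 2 others were called. Nothing states that equal numbers pair, and the deviations of replicate 1 from its group had a correlation of -0.146 between the groups over 15246 genes.

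Among genes named, 21 values in other settings had the opposite sign, all of changes that had not passed except CTC1. With limma on log2(FPKM + 0.1) and log2(FPKM + 1), LINC00926 was at 0.15 and 0.15, LINC00869 at 0.18 and 0.18, CTC1 at -0.0044 and -0.0044, RNF32 at -0.32 and -0.24, GHRL at 0.30 and 0.28, KBTBD2 at 0.060 and 0.057, and CHD2 at 0.038 and 0.036. With each library left out in turn, LINC00116 ran from -0.045 (without vector library 1) to 0.29, and LINC01420 from -0.24 to 0.012 (without vector library 2). LINC01513 ran from -0.17 to 0.080 (without JMJD3 library 2), with 0.061 without vector library 1. RNF32 ran from -0.084 (without vector library 2) to 0.25, RMDN2 from -0.25 to 0.053 (without JMJD3 library 2) and CHD2 from -0.25 to 0.014 (without vector library 1). The cause was not tested.

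There were 2 libraries in each group from 1 cell line, vector library 1 was on its own lane, and separate transductions are not stated. Members near the threshold rest on few reads, so small changes in them were not detectable at this depth. Reads of overlapping or near-identical genes cannot be told apart in libraries without strand, and RNA without poly(A) was not measured. Symbols follow the deposited table, and newer annotation moves some members out of the noncoding class. Transcription, RNA stability and H3K27 methylation were not measured.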
